A study of Mus musculus with 10 samples.

Results

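CpG island methylation in the left hemibrain was compared between mice on a diet enriched in n-3 polyunsaturated fatty acids (ERD) and mice on a diet with balanced n-3 and n-6 fatty acids (BLD). The comparison holds 7 of the 10 arrays of the series. The ERD group had 4 arrays and an n-3:n-6 ratio of 7:1, and the BLD group had 3 arrays and a ratio of 1:1. Arrays entered by the diet their labels give, and only probes well above background in both channels on all 7 arrays were used. Another group, of 3 arrays on the standard lab diet (STD), with a ratio of 1:6, is not part of the comparison. It serves to sort regions by an outside level, and its values are set beside those of both diets in places. An alternative fit also included all 10 arrays. All mice were male C57BL/6j, an inbred laboratory strain with no transgene or deletion named in the labels, and all diets had the same calories. Feeding began at 3 weeks of age and lasted 24 weeks. Every sample title ends in the word CONTROL, whatever the diet. The labels do not state that each array is a separate animal, although the titles carry separate identifiers, and p-values therefore cover the variation among the arrays at hand, which may be technical. A hemibrain mixes neurons, glia, vessels and blood cells, and a shift in the share of cell types cannot be told apart from a shift of methylation within cells.

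Methylated cytosine in mammals sits mostly at CpG dinucleotides and is copied to the new strand by maintenance methyltransferases when DNA is replicated. CpG islands, which often overlie promoters, mostly stay free of it, with exceptions such as imprinted control regions, germline genes and islands of an inactive X chromosome. n-3 fatty acids such as docosahexaenoic acid are built into the membranes of neurons, and n-6 fatty acids such as arachidonic acid compete with them for the same desaturases. Whether their ratio in the diet goes with island methylation in the brain is the question of this comparison.

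Methylated DNA was pulled down with an antibody, labelled with Cy5 and hybridised together with the Cy3-labelled input DNA of the same sample. The value used throughout is the log2 ratio of immunoprecipitated over input signal, centred on the median of each array, so that 0 is the middle of an array and not an absence of methylation. With every array centred, a difference in total methylation cannot be seen. The arrays carry 88737 probes that are not controls, and 64542 of them passed the brightness rule. Of these, 57906 formed 11172 of the 13835 regions of the series, and the rest lay in no tested region. A region is a run of neighbouring probes with starts at most 500 bp apart and at least 3 usable probes. Regions had a median of 4 usable probes and a median length of 720 bp, and 2889 of them (25.9%) kept every probe. The share of probes above background was 84.1% to 94.7% on the ERD arrays and 88% to 90.5% on the BLD arrays. Spots dropped as outliers numbered 51 to 476 per array, and saturated spots 0 to 27. Median input signal lay between 969 and 1162 in ERD and between 1030 and 1095 in BLD. The number of arrays limits the precision, with a median standard error of 0.112 for the difference of a region.

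No region separated the diets after adjustment for the number of regions tested. In limma 0 of 11172 regions (0%) had an adjusted p under 0.05, and the lowest adjusted p was 0.462. At an unadjusted limma p under 0.05 there were 1107 regions, or 9.91%. Of these, 544 (4.87%) were higher in ERD and 563 (5.04%) were lower in ERD. Every ERD array was above every BLD array in 515 regions (4.61%) and below every BLD array in 635 (5.68%). Differences centred on zero, with a median of -0.006 and a middle range from -0.108 to 0.106. In 55 regions the diets differed by over 0.5, with 34 of these higher and 21 lower in ERD. The lowest difference was -0.64 and the highest 0.826.

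The split between higher and lower regions moved with the scaling of the arrays. Scaling all arrays to one spread gave 660 higher and 406 lower, and quantile normalization gave 897 higher and 334 lower. Loess within arrays gave 381 higher and 667 lower, and normexp background correction 330 higher and 0 lower. Normexp moved the differences upward in general, to a median of 0.091 with 83.7% of all regions higher, from -0.006 and 48.6%. No diet can therefore be said to have more islands of high methylation signal. The counts also depended on single arrays. Leaving out BLD replicate 1 gave 301 regions higher and 304 lower, and leaving out BLD replicate 2 gave 339 higher and 420 lower. The lower count was 375 without ERD replicate 1, 352 without ERD replicate 3 and 917 without ERD replicate 2. ERD and BLD arrays never shared a slide, so diet and slide are nested. A random block for slide gave 573 regions higher and 582 lower.

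The brightness rule removed more regions that were low in ERD than regions that were high. With all probes used, 438 regions were higher and 810 lower in ERD at an unadjusted p under 0.05. In the 2663 regions that the rule left out, 92 were higher and 229 lower, which is 12.1% of them. In the 11172 that it kept, the same fit on all probes called 346 higher and 581 lower, or 8.3%. Of the 20 regions with the lowest p when all probes were used, 17 were lower in ERD and 11 could not be tested once dim probes were dropped. All 11 were on the lower side. The left-out regions had a median level of 0.03 against -0.058 in those kept.

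The 10 regions with the lowest p on the higher side differed by 0.44 to 0.66 on the log2 scale, and the 10 on the lower side by -0.62 to -0.37. They were named by p from those that kept one sign whichever array was left out, so their non-overlap and direction describe the choice and are no evidence. Each had an adjusted limma p of 0.462. The size of these differences depended on the background correction. With normexp the 10 regions on the lower side kept their sign but shrank to between -0.162 and -0.005. The higher ones ran from 0.136 to 0.903. These values include the general upward move with normexp, where the median difference over all regions was 0.091. With loess within arrays the named regions ran from -0.625 to -0.361 and from 0.32 to 0.497. All positions are on mouse build mm9, and the files used here pair no region with a gene.

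**Figure D1:**
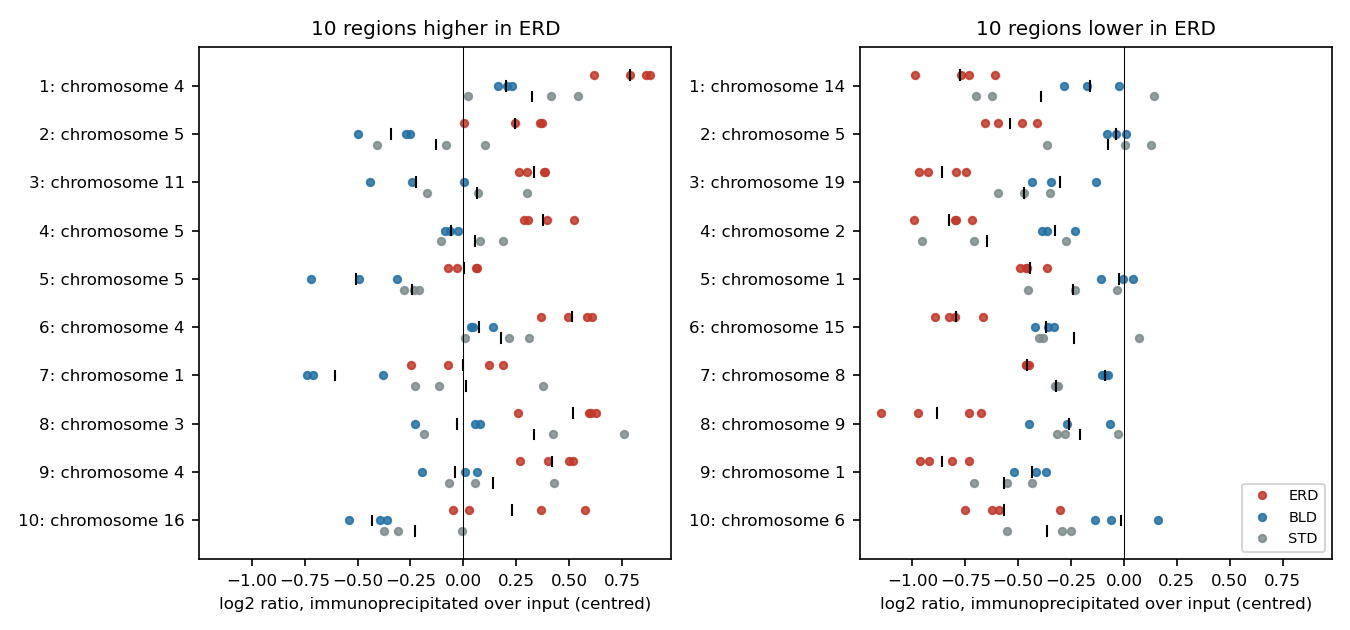
Log2 ratio of immunoprecipitated over input DNA (horizontal axis) in the 10 regions with the lowest p on each side, ordered by p from the top and labelled by rank and chromosome. Each point is 1 array of ERD, BLD or STD and each short black line a group mean, and the ERD and BLD points do not overlap in any of the 20.

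The region with the lowest p of all lay on chromosome 4 from 140581070 to 140581513 and held 3 probes. Its log2 ratio was 0.62, 0.79, 0.88 and 0.87 on the ERD arrays and 0.23, 0.21 and 0.16 on the BLD arrays. All 7 values were above the array median, and the lowest ERD array stood 0.38 above the highest BLD array. The difference was 0.59 ± 0.10 (SE; limma adjusted p = 0.462), and it was 0.32 with loess and 0.903 with normexp. STD replicates 1 and 2 lay between the diets, at 0.54 and 0.41, and STD replicate 3 lay below every BLD array, at 0.02. All 3 probes had the same sign, with differences of 0.77, 0.64 and 0.35 along the region, and the immunoprecipitated channel differed by 0.53 while the input channel differed by -0.10.

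Chromosome 5 held 3 of the 10 regions on the higher side. The first, from 107124989 to 107125883, had 6 probes and was the longest of them. It was at 0.37, 0.24, 0.36 and 0.0037 in ERD and at -0.50, -0.25 and -0.27 in BLD, so the diets stood on opposite sides of the array median. Its difference was 0.59 ± 0.12 (SE; limma adjusted p = 0.462), and all 6 probes had the same sign, from 0.28 to 0.84. The second, from 135553784 to 135554515, was at 0.52, 0.39, 0.28 and 0.31 in ERD and at -0.09, -0.03 and -0.07 in BLD. Here the input channel carried the larger part, being lower in ERD by -0.29 against 0.19 in the immunoprecipitated channel. The third, from 104084379 to 104084829, averaged 0.00 ± 0.07 (SD, n = 4) on the ERD arrays and -0.51 ± 0.20 (SD, n = 3) on the BLD arrays, and the difference lay in the immunoprecipitated channel (0.58, against 0.02 in the input).

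On chromosome 11 from 94871187 to 94871834, 5 probes gave 0.26, 0.38, 0.39 and 0.30 in ERD. The BLD arrays were far more spread, at -0.44, -0.24 and 0.0051. ERD was the tight group and BLD the wide one, and the difference was 0.56 ± 0.11 (SE), or 0.45 to 0.67 when 1 array was left out. The immunoprecipitated channel differed by 0.60 and the input channel by 0.00. On chromosome 16 from 20591336 to 20591768 the reverse held. The ERD arrays gave 0.58, 0.37, 0.02 and -0.05 and the BLD arrays -0.54, -0.36 and -0.40. The pair of ERD arrays from the first slide averaged 0.47 and the pair from the second -0.01, and BLD lay below both. In this region both channels were brighter in ERD, by 1.10 in the immunoprecipitated and 0.39 in the input channel, and only 3 of its 5 probes were usable. With all 5 probes the difference was 0.328.

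The other 4 regions on the higher side lay on chromosomes 1, 3 and 4. On chromosome 4 from 129487993 to 129488374 ERD averaged 0.51 ± 0.11 (SD, n = 4) and BLD averaged 0.07 ± 0.06 (SD, n = 3), and the difference of 0.44 became 0.133 when its dim probe was included. On chromosome 4 from 46317665 to 46318155 it was 0.42 ± 0.11 in ERD and -0.04 ± 0.14 in BLD, and 1 of the 3 probes went the other way, by -0.19. Likewise 1 of 3 probes went the other way, by -0.08, on chromosome 1 from 9689896 to 9690240, where ERD was at 0.00 ± 0.20 and BLD at -0.61 ± 0.20. Its difference of 0.61 was 0.332 with the median of the probes and 0.172 when probes were joined over a wider gap. That region and 1 on chromosome 5 are the only named ones on the higher side where ERD stood at the array median and not above it. On chromosome 3 from 8462856 to 8463085, the shortest of the 20 at 230 bp, ERD replicate 4 was at 0.26 and the other ERD arrays between 0.59 and 0.63. BLD was at -0.03 ± 0.17 there.

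On the lower side the lowest p belonged to 5 probes on chromosome 14 from 26746521 to 26747103. The ERD arrays gave -0.99, -0.77, -0.73 and -0.61 and the BLD arrays -0.02, -0.29 and -0.18. The difference was -0.61 ± 0.11 (SE; limma adjusted p = 0.462), with all 5 probes lower by -0.73 to -0.46. With normexp it was -0.105 and with loess -0.625. The STD arrays did not side with either diet, at -0.70, -0.62 and 0.14. On chromosome 5 from 147644439 to 147645114 the ERD arrays gave -0.66, -0.48, -0.60 and -0.41 and the BLD arrays 0.01, -0.08 and -0.04. BLD thus sat at the array median and ERD below it, and the immunoprecipitated channel differed by -0.49 against -0.03 in the input.

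The region with most usable probes among the 20 lay on chromosome 19 from 4096751 to 4097586, with 7 of its 9. ERD was at -0.93, -0.75, -0.97 and -0.80 and BLD at -0.13, -0.43 and -0.34, a difference of -0.56 ± 0.11 (SE). Of its 7 usable probes 6 were lower in ERD, and the remaining one differed by 0.06. The first probe of the run was dropped as dim and differed by 0.70 in the other direction, being above background in both channels on only 2 of the 7 arrays. The next region, 2.23 kb away, was higher in ERD by 0.23 ± 0.09 (SE) and was among the regions at an unadjusted p under 0.05. The differences of these neighbouring islands had opposite signs, but neither passed the adjusted threshold.

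**Figure D2:**
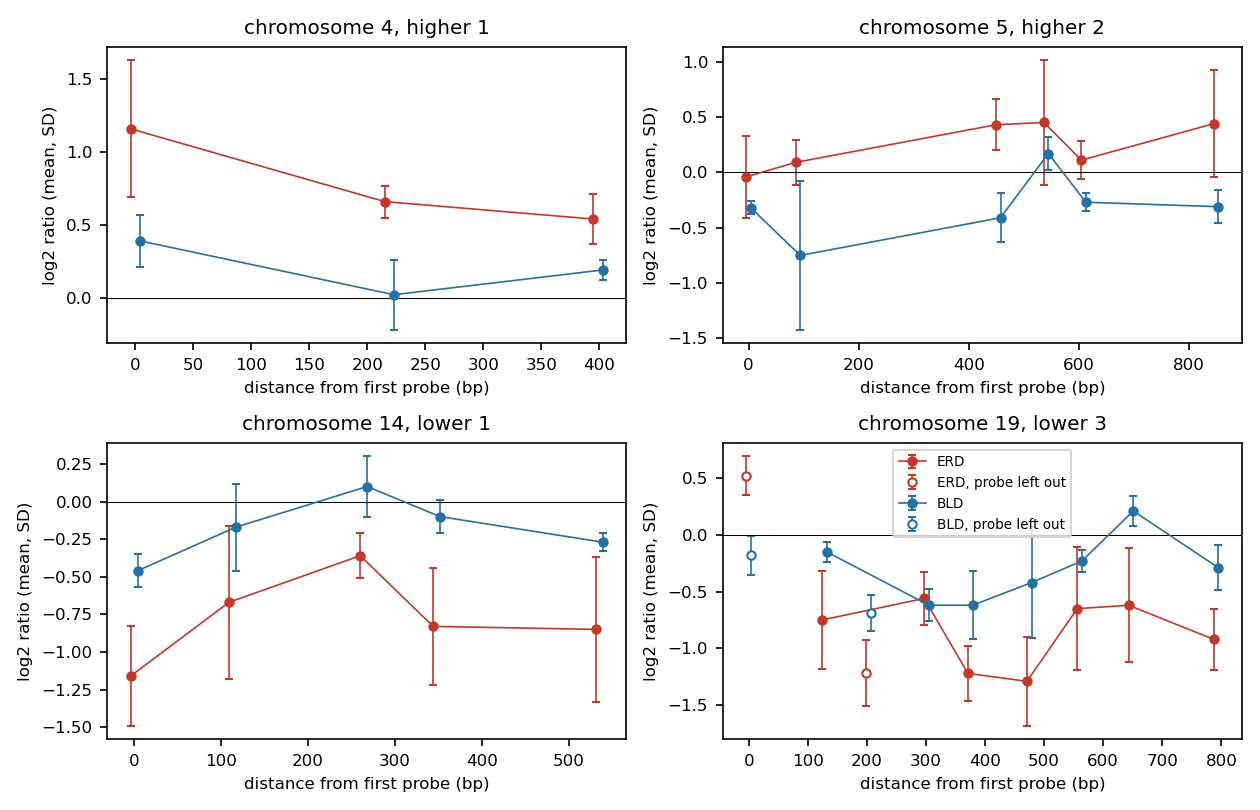
Log2 ratio of single probes (vertical axis, mean with SD over 4 ERD or 3 BLD arrays) against the distance in bp from the first probe in the 2 regions of lowest p on the higher side and in the first and the third on the lower side. Filled points are usable probes and open points probes left out as dim, and points of the diets are set apart slightly for legibility. ERD lay on one side of BLD at every usable probe except 1 on chromosome 19.

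Among the 20, the smallest spread within a diet was that of chromosome 8 from 87604137 to 87604561, with 4 probes. The ERD arrays gave -0.46, -0.45, -0.46 and -0.46, the BLD arrays -0.07, -0.10 and -0.09, and the STD arrays -0.31, -0.32 and -0.33. The SD was 0.01 in each diet, and no array of any diet lay among those of another. Its single probes were not as even. The ERD mean was 0.19 ± 0.33 (SD) at the first probe, -0.92 ± 0.15 at the second and -1.25 ± 0.44 at the third, so that wider deviations of the probes cancelled in the mean of the region. The difference of -0.37 ± 0.08 (SE) came from the middle pair of probes, at -0.81 and -0.85, while the outer pair differed by 0.20 and -0.01. With normexp the difference was -0.005.

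The other 6 regions on the lower side differed by -0.62 to -0.42. The widest of these lay on chromosome 9 from 119353943 to 119354282, where ERD was at -1.15, -0.68, -0.73 and -0.97 and BLD at -0.07, -0.45 and -0.27. The ERD arrays were widely spread but all stayed below every BLD array. On chromosome 2 from 32091883 to 32092480 ERD averaged -0.83 ± 0.12 (SD, n = 4) and BLD averaged -0.33 ± 0.08 (SD, n = 3). On chromosome 15 from 77800770 to 77801700 it was -0.80 ± 0.10 and -0.37 ± 0.05, and 1 of 6 probes went the other way by 0.07. On chromosome 6 from 128792917 to 128793297 it was -0.57 ± 0.19 and -0.01 ± 0.16. Chromosome 1 held the remaining pair. From 75165078 to 75165573 ERD was at -0.44 ± 0.06 and BLD at -0.02 ± 0.08, and from 193398739 to 193399990 ERD was at -0.86 ± 0.11 and BLD at -0.43 ± 0.08. In the second of these only 5 of 12 probes were usable, and with all 12 the difference of -0.42 became -0.182.

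Shared features of the 20 regions are these. All 10 on the lower side had a negative mean in ERD, from -0.88 to -0.44, while BLD ranged from -0.43 to -0.01. On the higher side ERD ranged from 0.00 to 0.79 and BLD from -0.61 to 0.20. Lengths were 230 to 895 bp on the higher and 340 to 1252 bp on the lower side, with 3 to 7 usable probes. Over all tested regions the medians were 720 bp and 4 usable probes.

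The nearest tested region did not follow a named one as a rule. On the higher side 4 of 10 neighbours had the same sign and 0 had an unadjusted limma p under 0.05, at distances of 8.59 to 202 kb. On the lower side 5 of 10 had the same sign, and both neighbours with an unadjusted p under 0.05 were of opposite sign, at distances of 2.23 to 404 kb over the 10. Over all regions, differences of adjacent pairs under 2 kb apart correlated at r = 0.027 over 409 pairs, and at r = 0.009 over the 1107 pairs at 2 to 10 kb. All pairs share the same 7 arrays. The sign was the same in 48.9% and 51.9% of these pairs. Runs of 3 regions in a row with an unadjusted p under 0.05 and one sign occurred on chromosome 12 from 87762541 to 88020108, on chromosome 11 from 71564089 to 72021209 and on the X chromosome from 101175933 to 101609390. All 3 runs were higher in ERD, by 0.27 to 0.44, 0.24 to 0.33 and 0.24 to 0.29. Over all regions 4.87% were higher and 5.04% lower at that unadjusted limma p. Whether 3 runs are more than these shares alone would give was not tested.

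The channels, each centred on the median of its array, show which signal of the ratio differed. Why a channel differed was not tested. On their own, the immunoprecipitated channel had 0 regions and the input channel 0 regions at an adjusted limma p under 0.05, with lowest adjusted p of 0.44 and 0.639. At an unadjusted p under 0.05 the immunoprecipitated channel was higher in ERD in 715 regions (6.4%) and lower in 242 (2.17%). Without ERD replicate 2 these became 1247 and 462, and without BLD replicate 2 they became 466 and 137. Without BLD replicate 1 the lower count was 133. The excess of brighter regions turned with quantile normalization (327 higher, 415 lower) and with scaling to one spread (346 higher, 431 lower). It kept its direction with loess (528 higher, 333 lower) and with normexp (27 higher, 0 lower). In the input channel 394 regions were higher (3.53%) and 329 lower (2.94%). Leaving out ERD replicate 2 gave 626 and 602, leaving out ERD replicate 3 gave 257 and 215, and leaving out ERD replicate 4 gave 241 and 206.

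Among the 544 regions with a higher ratio in ERD, the immunoprecipitated channel was itself higher at an unadjusted p under 0.05 in 240, and the input was lower in 32. Their median differences were 0.371 in the immunoprecipitated channel and 0.008 in the input. Among the 563 with a lower ratio, the immunoprecipitated channel was lower in 116 and the input higher in 16, with medians of -0.239 and 0.015. These regions were chosen by the ratio of the same 2 channels, so the values describe them and test nothing. In the 20 named regions the immunoprecipitated channel moved by more than the input in 18, the exceptions being 1 region on chromosome 3 and 1 on chromosome 5. In 7 of the 10 on the higher side and 5 of the 10 on the lower side its unadjusted p was under 0.05, against 2 and 0 for the input.

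**Figure D3:**
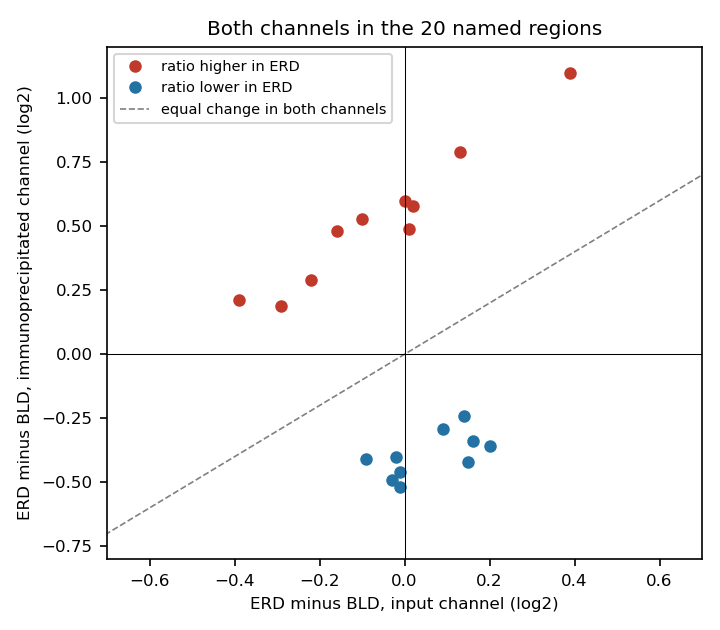
Difference between ERD and BLD in the immunoprecipitated channel (vertical, log2) against that in the input channel (horizontal, log2) for the 20 named regions, each a point. The dashed line marks an equal change in both channels; regions with a higher ratio span 0.19 to 1.10 on the vertical axis and those with a lower ratio -0.52 to -0.24, while the input spans -0.39 to 0.39.

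Single probes gave wider differences with less support from their neighbours. In limma 0 of 64542 probes had an adjusted p under 0.05, with 0.365 as the lowest, while 4356 (6.75%) were higher and 3649 (5.65%) lower in ERD at an unadjusted p under 0.05. Without BLD replicate 1 the total of both directions was 4454. The 10 probes named by p had differences from 0.99 to 1.48 on the higher side and from -1.42 to -0.87 on the lower side. None of them lay in a named region, and 8 lay in a tested one, whose own difference was only 0.24 to 0.36 or -0.40 to -0.19.

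The probe A_68_P24176698 on chromosome 5 from 148769249 to 148769293 was at 0.01, 0.01, 0.39 and 0.13 in ERD and at -1.52 and -1.18 in BLD, where replicate 3 was dropped as an outlier spot. Its difference of 1.48 ± 0.21 (SE; limma adjusted p = 0.365) therefore rests on 2 BLD arrays, and the region around it differed by 0.28 ± 0.13. The same spot problem held for A_68_P26797102 on chromosome 9, with 1.23 ± 0.24. Probe A_68_P25016046 on chromosome 7 from 27981095 to 27981139 was widest on the lower side, at -1.73, -1.48, -2.14 and -1.54 in ERD and 0.05, -0.62 and -0.35 in BLD. It lay outside any tested region. Probe A_68_P21609431 on chromosome 2 was lower by -0.98 ± 0.19 within a region that was itself lower by -0.38 ± 0.09 (SE). Probe A_68_P31351304 on chromosome 17 was at -1.18, -1.12, -1.17 and -1.17 in ERD and -0.31, -0.26 and -0.31 in BLD, while the STD arrays ran from -2.23 to 0.28.

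The direction of the difference followed the brightness of the input signal. Regions were sorted into 5 classes of like size by their input signal on the STD arrays, which are in neither diet. In the dimmest class of 2234 regions, 24 were higher and 249 (11.1%) lower in ERD, with a median difference of -0.08. In the brightest class of 2235 regions, 287 (12.8%) were higher and 26 lower, with a median of 0.085. Both stand against 4.87% higher and 5.04% lower over all regions. The median differences of the classes in between were -0.03, -0.017 and 0.013, so that they ran in one order.

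Per array, the brightest minus the dimmest class was 0.154, 0.145, 0.042 and 0.035 in ERD and -0.116, -0.073 and -0.028 in BLD. The sign was positive on every ERD array and negative on every BLD array, and the pair of ERD arrays from the first slide lay well above the pair from the second. The difference of 0.166 had an exact two-sided permutation p of 0.0286, the smallest that 4 arrays against 3 allow, and an adjusted p of 0.114 over 8 values per array. This measure was added after the data were seen. STD arrays were on the side of ERD, at 0.072, 0.069 and 0.011. Median differences in the input channel were 0 to 0.015 in all 5 classes, while those of the immunoprecipitated channel went from -0.032 in the dimmest to 0.117 in the brightest. Loess and normexp also change the STD values, and the classes were sorted anew with each, so they need not hold the same regions. Loess, which removes a trend with signal within each array, gave 118 higher and 91 lower in the brightest class. In the dimmest it gave 59 higher and 189 lower. With loess the difference per array fell from 0.166 to 0.063 (exact permutation, adjusted p = 0.457). It was 0.14 with normexp (exact permutation, adjusted p = 0.533). With quantile normalization and with scaling to one spread it was 0.155 (exact permutation, adjusted p = 0.229 for each). Leaving out 1 array gave 0.145 to 0.188. Normexp gave 140 higher and 0 lower in the brightest class, and 14 higher and 0 lower in the dimmest. Without BLD replicate 1 the brightest class had 168 higher and the dimmest 143 lower, and without BLD replicate 2 the brightest had 190 higher. Signal brightness thus moved with the result, and the named regions under loess and normexp are given above.

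The level of a region in STD sorted the differences in a like way. Among the 1117 regions in the lowest 10% by STD level, 19 were higher and 163 (14.6%) lower in ERD, with a median difference of -0.094. Among the 1118 of the highest 10%, 60 (5.37%) were higher and 7 lower, with a median of 0.1. Over all regions 4.87% were higher and 5.04% lower. The higher share in the highest 10% was thus near that of all regions, and the largest, 9.13%, was in the class next to it. The array medians of the lowest 10% were -0.442, -0.389, -0.406 and -0.393 in ERD and -0.314, -0.384 and -0.265 in BLD. The arrays of the groups did not overlap, by a narrow margin, and the difference of -0.087 had an exact permutation p of 0.0286 and an adjusted p of 0.171 over 6 values per array. It turned to 0.113 with normexp and to 0.006 with quantile normalization, and shrank to -0.019 with scaling to one spread. With classes from STD replicates 2 and 3, which share no slide with BLD, it was -0.036 (exact permutation, adjusted p = 0.729). In the highest 10% the ERD arrays were at 0.350, 0.981, 0.353 and 0.610 and the BLD arrays at 0.586, 0.497 and 0.313. ERD replicate 2 stood far above the rest, the exact permutation p was 0.657, and without that array the difference of 0.108 became -0.028.

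This order rested in part on choices of scale and on single arrays. Quantile normalization gave 46 lower and 80 higher in the lowest 10%, and scaling to one spread 59 lower and 50 higher. Normexp, with classes sorted anew, gave 0 lower and 22 higher. STD replicate 1 shares a slide with BLD replicate 3. With classes from the other STD arrays alone, the lowest 10% had 42 higher and 99 lower and the highest 46 higher and 14 lower. Leaving out ERD replicate 1 gave 105 lower in the lowest 10%, leaving out BLD replicate 1 gave 81 and leaving out BLD replicate 3 gave 104. The highest 10% had 132 higher without ERD replicate 1 and 96 without ERD replicate 3. Without ERD replicate 2 its order turned, with 46 higher and 70 lower.

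**Figure D4:**
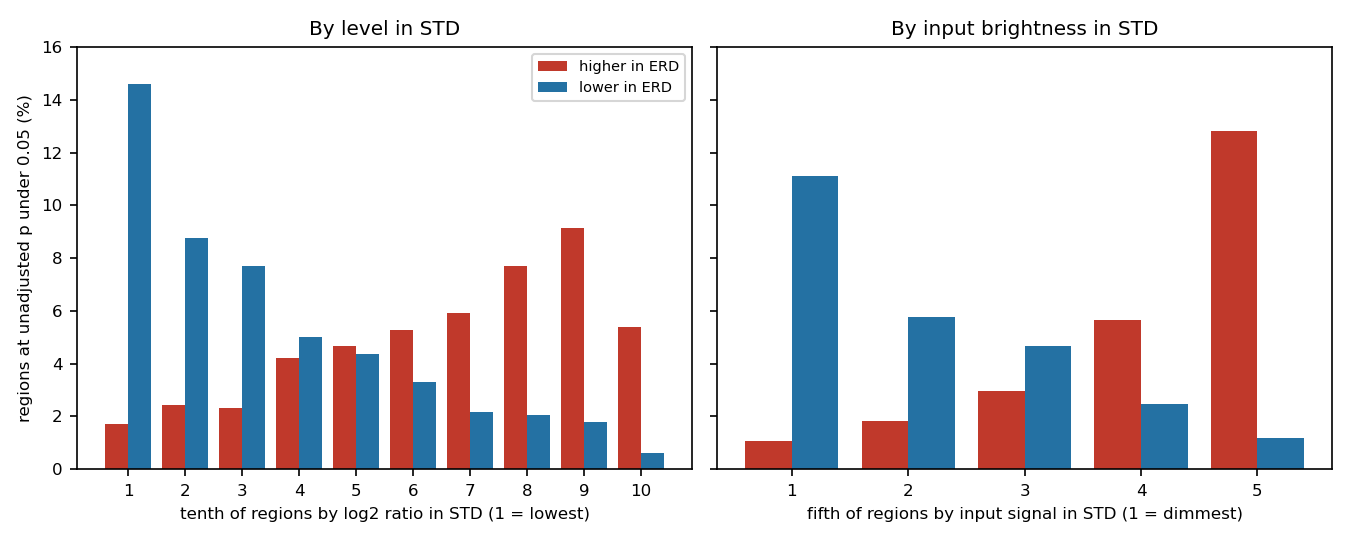
Percent of regions at an unadjusted limma p under 0.05 (vertical axis), higher or lower in ERD, by class of log2 ratio in STD on the left (10 classes of like size) and by class of input signal in STD on the right (5 classes). The lower bars run down from 14.6% to 0.626% from left to right in the first panel and from 11.1% to 1.16% in the second, where the higher bars run up from 1.07% to 12.8%.

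The X chromosome had a larger share of regions on the higher side than any assembled autosome. In females 1 X is silenced and many of its islands are methylated, while the single X of males is not silenced in this way. Of 278 tested X regions, 33 (11.9%) were higher and 4 (1.44%) lower in ERD, and the median difference was 0.079. The next highest median among assembled chromosomes was 0.007 on chromosome 12, and the shares of the autosomes lay between 2.43% and 5.97% higher. The median came from the immunoprecipitated channel, at 0.102 against -0.006 in the input.

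Over arrays, the X difference was within the spread of the samples. The X median was 0.114, 0.169, 0.060 and 0.039 in ERD and 0.071, 0.017 and 0.003 in BLD. BLD replicate 1 lay above both ERD arrays of the second slide. ERD averaged 0.095 ± 0.058 (SD, n = 4) and BLD 0.030 ± 0.036 (SD, n = 3), which gave an exact permutation p of 0.171 and an adjusted p of 0.4. Relative to the autosomal median of the same array the difference was 0.069 (exact permutation p = 0.171, adjusted 0.32 over 8). It was 0.039 without BLD replicate 3 and 0.02 with normexp, and the plain X difference of 0.065 was 0.041 without ERD replicate 2. By input brightness, X regions had median differences of 0.015, 0.08, 0.071, 0.092 and 0.124 from the dimmest to the brightest input class, against -0.083 to 0.084 on the autosomes. By level in STD, the X median lay above the autosomal one in every class of 10% except the highest. There it was 0.096 over 41 X regions, against 0.1 on the autosomes. Without BLD replicate 2 the X had 18 regions on the higher side, and normexp gave 17 and quantile normalization 50. The X median of the input channel was 0.081 to 0.354 on 9 of the 10 arrays and 0.514 on STD replicate 3, where alone it lay above the autosomal median of 0.393. That array is in neither diet compared.

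Of the X regions, the lowest p belonged to 3 probes from 47013995 to 47014388. They gave 0.98, 1.40, 1.08 and 1.02 in ERD and 0.79, 0.39 and 0.27 in BLD, a difference of 0.64 ± 0.14 (SE; limma adjusted p = 0.462). It was high on all 7 arrays and higher still in ERD. From 68303129 to 68303625 the order was the other way, ERD averaging -0.23 ± 0.15 (SD, n = 4) and BLD 0.12 ± 0.11 (SD, n = 3) over 3 probes.

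**Figure D5:**
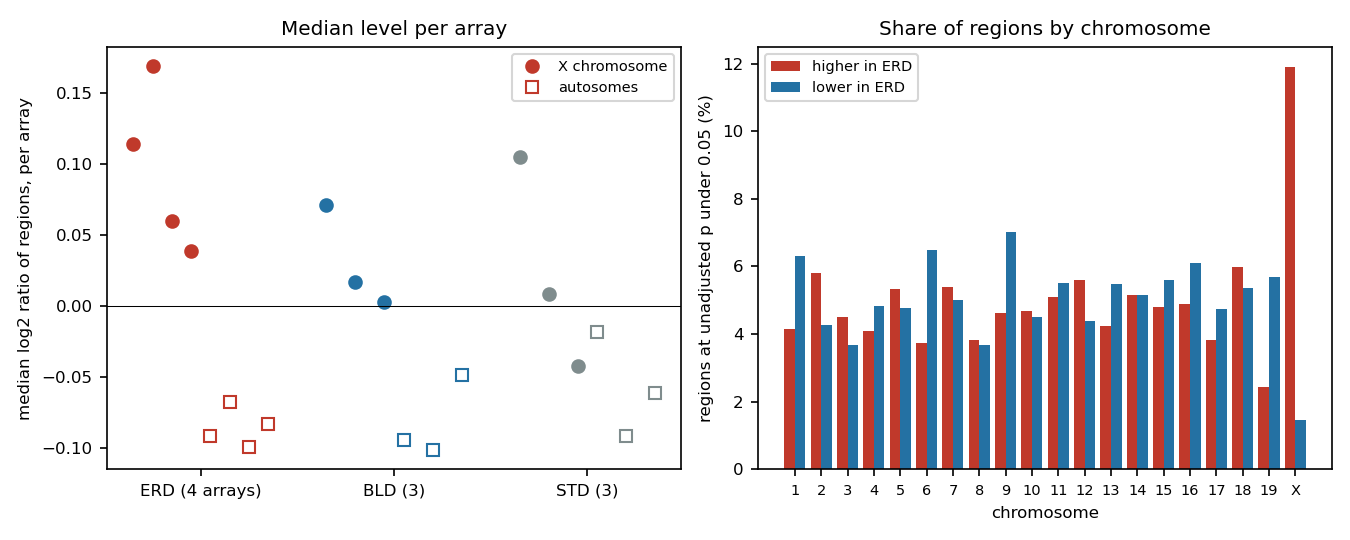
Left, the median log2 ratio of 278 X regions (filled circles) and of 10888 autosomal regions (open squares) on each array, by diet. Right, the percent of regions at an unadjusted limma p under 0.05 by chromosome, where the X chromosome reaches 11.9% higher and 1.44% lower in ERD.

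By size, the share of regions at an unadjusted limma p under 0.05 in the main fit was larger where fewer probes were averaged. Regions of 3 usable probes were higher in ERD in 7.44% and lower in 6.19%, and regions of over 10 usable probes in 1.75% and 2.85%. That fit drew the variances of all sizes towards one common value. When only regions of at least 5 usable probes were fitted, 10.5% passed, against 9.91% in the main fit. Arrays of the diets did not overlap in 172 higher and 153 lower of the 3052 regions of 3 probes. Among the 456 regions of over 10 they did not overlap in 14 higher and 39 lower. The median level of the 1225 long islands, those of over 10 probes, usable or not, was -0.127 ± 0.012 (SD, n = 4) on the ERD arrays and -0.111 ± 0.031 (SD, n = 3) on the BLD arrays (exact permutation p = 0.486). That difference of -0.016 turned to 0.002 without BLD replicate 3, to 0.02 with quantile normalization and to 0.001 with scaling to one spread. It turned to 0.07 with normexp, where the median difference over all regions was 0.091.

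The highest mean level over the 7 arrays was that of 3 usable probes on chromosome 11 from 19920636 to 19921352. They gave 0.71, 2.27, 0.55 and 1.22 in ERD and 1.62, 1.42 and 0.83 in BLD, so the diets overlapped widely (difference -0.10 ± 0.36 SE). The lowest lay on chromosome 16 from 56029231 to 56030316, with -1.67, -0.87, -1.37 and -1.10 in ERD and -0.86, -0.99 and -0.58 in BLD. ERD replicate 2 lay among the BLD arrays there, and the difference was -0.45 ± 0.18 (SE; limma adjusted p = 0.485). Both STD and BLD stood above ERD, STD at -0.23 ± 0.08 (SD, n = 3). The region was chosen as lowest on the ERD and BLD arrays alone, so a higher level in STD is expected from that choice. Only 3 of its 8 probes were usable.

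The likeness of arrays within a diet overlapped with that between diets. Over regions, which come from the same arrays and are not independent replicates, the correlation between ERD arrays ran from 0.680 to 0.838. Between BLD arrays it ran from 0.724 to 0.848, and between ERD and BLD arrays from 0.545 to 0.844. ERD replicate 2 correlated at 0.692 with its slide partner and at 0.844 with BLD replicate 2. The interquartile range of region values averaged 0.408 ± 0.027 (SD, n = 4) on the ERD arrays and 0.345 ± 0.104 (SD, n = 3) on the BLD arrays (exact permutation p = 0.2, adjusted 0.4). BLD replicate 3 had the narrowest range of the 7, at 0.230, and without it the difference was 0.005. The share of probes above background averaged 88.5% in ERD and 89.6% in BLD (exact permutation p = 0.771). That difference turned to 0.322 without ERD replicate 3 and to 0.199 without ERD replicate 4.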

How the data were processed

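The authors deposited 1 scanner file per 2-colour array, with processed intensity per channel that was background-subtracted and scaled linearly between dyes without lowess, median spot and background intensity, and a log10 ratio, per the file headers. The headers name Agilent Feature Extraction 10.7.3.1 and the submitters' processing notes 9.0. The deposited series table holds the same log10 ratio, to within 0.00498, in the same direction and with no further centring (column medians from -0.00795 to 0.00095). Cy5 carried immunoprecipitated DNA and Cy3 input on every array, per the labels, with no dye swap, so a dye effect of a probe cancels only as far as it is common to the arrays.

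Log2 ratios of processed Cy5 over Cy3 intensity were centred per array, outlier spots dropped and saturated spots kept. Regions are means of usable probes. The fit (lmFit and eBayes of limma 3.58.1, R 4.3.3) used the 7 arrays and no covariate, with Benjamini-Hochberg adjustment over all regions or probes. An exact permutation test over 35 splits, two-sided, served for values per array. Scripts were tested on simulated data. The 10 regions and 5 probes per direction with the lowest p, direction holding in every fit without 1 array, were named, with the highest and lowest region by level. X regions, runs, neighbours and classes were singled out after their values were seen. The comparison, members and lists were chosen with earlier results of these data known.

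Probes carry mm9 positions but no gene name or sequence, and the gene tables at hand are on another build. Gene lists and cell type markers were therefore not tested and the tissue label could not be checked against markers. Alternatives covered the brightness filter, region definition, background correction (normexp with offset 50 on median signals, as mean signals were not used here), normalization, slide, array weights and each left-out array.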

Additional observations from a re-analysis of the deposited data

Results flagged for a closer look

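In 52 sets of 4 ERD values, 4 had 1 array far from the others by Dixon's test, and chance gives about 1 in 20. In the region on chromosome 3 from 8462856 to 8463085 ERD replicate 4 was at 0.26, below the other 3. On chromosome 8 from 87604137 to 87604561 ERD replicate 2 was at -0.45, close to the others, so only the narrow range set it apart. Probe A_68_P31351304 was at -1.12 on ERD replicate 2 and probe A_68_P24089932 at -0.93 on ERD replicate 3. In all 4 the array that stood apart was the one nearest to BLD.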

How the results depend on the processing

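No alternative gave a region with an adjusted p under 0.05. The same held for probes and for either channel, which were refitted only with other background correction or normalization, outlier spots kept, saturated spots dropped and each array left out (probes also with the series table and with no brightness filter). Named regions kept their sign in 505 of 505 refits, but not their size, as given in the report, and their adjusted p ran from 0.115 with array weights to 0.978 with normexp. The fits without 1 array were part of how these regions were named, so their sign was fixed in advance. The other refits reuse the same ERD and BLD arrays, and the tally is therefore no evidence of a difference. STD and input classes were sorted anew in each alternative and need not hold the same regions. The cause of each change below was not tested unless said.

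With at least 5 usable probes, which leaves 5477 regions to test, counts at an unadjusted p under 0.05 were 260 higher and 313 lower, 15 higher on the X, 79 lower in the lowest and 38 higher in the highest STD class, 140 higher in the brightest and 135 lower in the dimmest input class. Normexp gave 330 higher and 0 lower, 17 on the X, 0 lower in the lowest STD class, 140 in the brightest and 0 lower in the dimmest input class, 823 probes, 27 and 0 in the immunoprecipitated and 0 and 3 in the input channel. It turned the difference of the lowest STD class to 0.113 and that of regions over 10 probes to 0.07, beside a median difference of 0.091 over all regions. Loess gave 118 in the brightest input class and 635 higher in the input channel. Quantile normalization gave 897 higher and 334 lower, 50 on the X, 46 in the lowest STD class, and 327 and 415 in the immunoprecipitated channel, with medians of 0.006 and 0.02. Scaling to one spread gave 59 and 36 in the lowest and highest STD class, 346 and 431 in the immunoprecipitated channel and 0.001 for regions over 10 probes. Array weights gave 1008 higher, 929 lower, 51 on the X, 127 in the highest STD class and 386 in the dimmest input class. Trend with robust moderation gave 33 in the highest STD class. Level classes from STD replicates 2 and 3 gave 99 lower in the lowest.

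Leaving out 1 array gave 301 to 752 higher and 304 to 917 lower, 18 to 39 on the X, 81 to 191 in the lowest and 42 to 132 in the highest STD class, 168 to 341 in the brightest and 143 to 368 in the dimmest input class, and 4454 to 11072 probes. It gave 466 to 1247 higher and 133 to 462 lower in the immunoprecipitated and 241 to 626 higher and 206 to 602 lower in the input channel. Differences per array ran from -0.028 to 0.183 in the highest STD class, from -0.118 to -0.059 in the lowest, from -0.027 to 0.002 for regions over 10 probes and from -3.20 to 0.322 for the percent of bright probes. No paired analysis was possible because the labels give no replicate numbers, and replicates were numbered in accession order.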
